A study of Mus musculus with 6 samples.

Results

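Oxygen sensing by the hypoxia-inducible factors (HIF) was examined through 10 genes in colorectal tumors with and without intestinal Trp53. They are the HIF alpha subunits Hif1a and Epas1, the prolyl hydroxylases Egln1 and Egln3, and the HIF targets Vegfa, Adm, Car9, Ndrg1, Bnip3 and Ankrd37. The genes were picked by symbol among the 54167 genes of the deposited table, and all 10 were found. RNA was sequenced from 6 tumors, 3 from Trp53fl/fl mice and 3 from VP mice, which carry Pvillin-Cre together with Trp53fl/fl. Trp53 is flanked by loxP sites in both genotypes, so the Trp53fl/fl tumors keep an intact gene. In VP mice the villin promoter drives Cre in the intestinal epithelium, and stromal, vascular and immune cells of the tumor are not targeted. All mice were C57BL/6J according to the labels. The methods describe male mice 8 weeks old that were injected with 10 mg/kg of the carcinogen azoxymethane (AOM). They then drank 2.5% dextran sulfate sodium (DSS), which injures the colon lining, in repeated cycles. Each cycle had 7 days of DSS followed by recovery on regular drinking water. Tumors were taken on day 98.

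HIF is a pair of proteins, an alpha subunit that oxygen makes unstable and the stable partner ARNT. With oxygen present, the EGLN enzymes hydroxylate prolines of the alpha subunit, the von Hippel-Lindau protein VHL binds it, and it is degraded. When oxygen is scarce the alpha subunit persists, joins ARNT and activates genes whose control regions hold a short core sequence. This control acts on the protein, so mRNA of Hif1a or Epas1 is not a measure of HIF activity, whereas mRNA of target genes is often read as one. The colon is a classical site of physiological hypoxia, since the epithelium faces a lumen with almost no oxygen.

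The HIF core sequence was searched for as ACGTG and GCGTG, on both strands (read as CACGT and CACGC on the strand shown), in RefSeq promoters of GRCm38.p6 that span 250 bases before to 50 bases after a transcript start. Promoters of 8 members were found in the table, and Epas1 and Ndrg1 had no entry. Each of these 8 members had at least 1 match, and the start of Vegfa nearest the gene's outer end had 0 matches while a start farther in had 2. A match was also present in 43.8% of all 32851 promoters, so its presence is a description of the letters and does not mark a bound site. The windows below are shown for the members with the lowest unadjusted p-values, Adm and Car9, and for the members whose promoters held most matches, Bnip3 and Ankrd37. Each has 30 bases upstream of the RefSeq start, 5′ to 3′ on the strand of the gene, with the matches in capitals. Where CACGTG appears, matches on both strands overlap.
Adm, upstream: gaagcaagCACGCtggagagggaggactcc
Adm, nearer the start: aatctgacCACGCccaccgtccgcccctga
Car9: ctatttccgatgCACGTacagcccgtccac
Bnip3: tgccggcgCACGCgccgCACGTGccacacg
Ankrd37, upstream: ccagcagtACGTGcctagctcggctcgcat
Ankrd37, nearest the start: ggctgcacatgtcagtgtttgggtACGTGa

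The Adm windows lie at chr7:110627559-110627588 and chr7:110627595-110627624 on the plus strand, and the Car9 window at chr4:43506996-43507025 on the plus strand, ending at the base before the start. The Bnip3 window lies at chr7:138909602-138909631 and the Ankrd37 windows at chr8:46000070-46000099 and chr8:45999851-45999880, all on the minus strand. The Car9 and Ankrd37 windows and the searched promoter of Hif1a lie inside the gene limits given below. The RefSeq starts used for these genes are therefore farther in than the outer ends of those limits. In the promoter of 300 bases, Bnip3 had 5 matches, Ankrd37 had 4, Hif1a had 3, Adm and Egln1 had 2 each, and Car9 and Egln3 had 1 each. At least 2 matches were present in 20.6% of all promoters. The number of matches did not order the members by their difference between genotypes, since Ankrd37 with 4 matches had a log2 fold change of 0.06 and Car9 with 1 match had 0.59.

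Expression is given as TPM, a relative transcript abundance that allows for gene length and is set by the authors to one common total per tumor. TPM keep no read numbers, so the depth of each library is unknown and no counting error can be given for a value. Between 14857 and 15234 genes reached 1 TPM in a tumor. Differences are VP minus Trp53fl/fl on the log2(TPM + 1) scale, a scale on which differences of weakly expressed genes look smaller. The limma test covered the 15117 genes that reached 1 TPM in 3 or more tumors, and p-values were adjusted over all of these by Benjamini-Hochberg. The sources do not say whether each tumor came from its own mouse, so the p-values measure the spread between these tumors. Trp53 itself was between 99.30 and 147.45 TPM in Trp53fl/fl tumors and between 27.83 and 38.45 TPM in VP tumors (log2 fold change -1.87, SE 0.18, limma adjusted p = 0.0207). The epithelial identity of the tumors was checked with 12 markers (Epcam, Cdh1, keratins, Vil1, Cdx1, Cdx2 and others), all expressed, which summed to 10350 to 10810 TPM in Trp53fl/fl tumors and 11700 to 12700 TPM in VP tumors.

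None of the 10 genes passed the adjusted threshold of 0.05 (limma), against 0.165% of all genes tested (0.0794% higher and 0.086% lower in VP tumors). At an unadjusted p under 0.05, 2 of the 10 were higher in VP tumors, Adm and Car9, where 4.51% of all genes were higher, and 0 were lower, where 8.0% of all genes were lower. The same 2 genes had every VP tumor above every Trp53fl/fl tumor, as did 6.03% of all genes, and no member had every VP tumor below, as 13.3% of all genes had. The log2 fold change was positive for 8 of the 10 members and for 39.2% of all genes. Its median was 0.22 over the members and -0.07 over all genes tested. Centring each tumor on its epithelial markers lowers the log2 fold change of every gene by the same amount. The median of all genes became -0.24 and that of the members 0.05. Of the 10 members 5 were then positive, with Vegfa, Ndrg1 and Ankrd37 turning negative. In bulk tumor tissue, fewer cells of a type and less RNA per cell cannot be told apart.

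**Figure D1:**
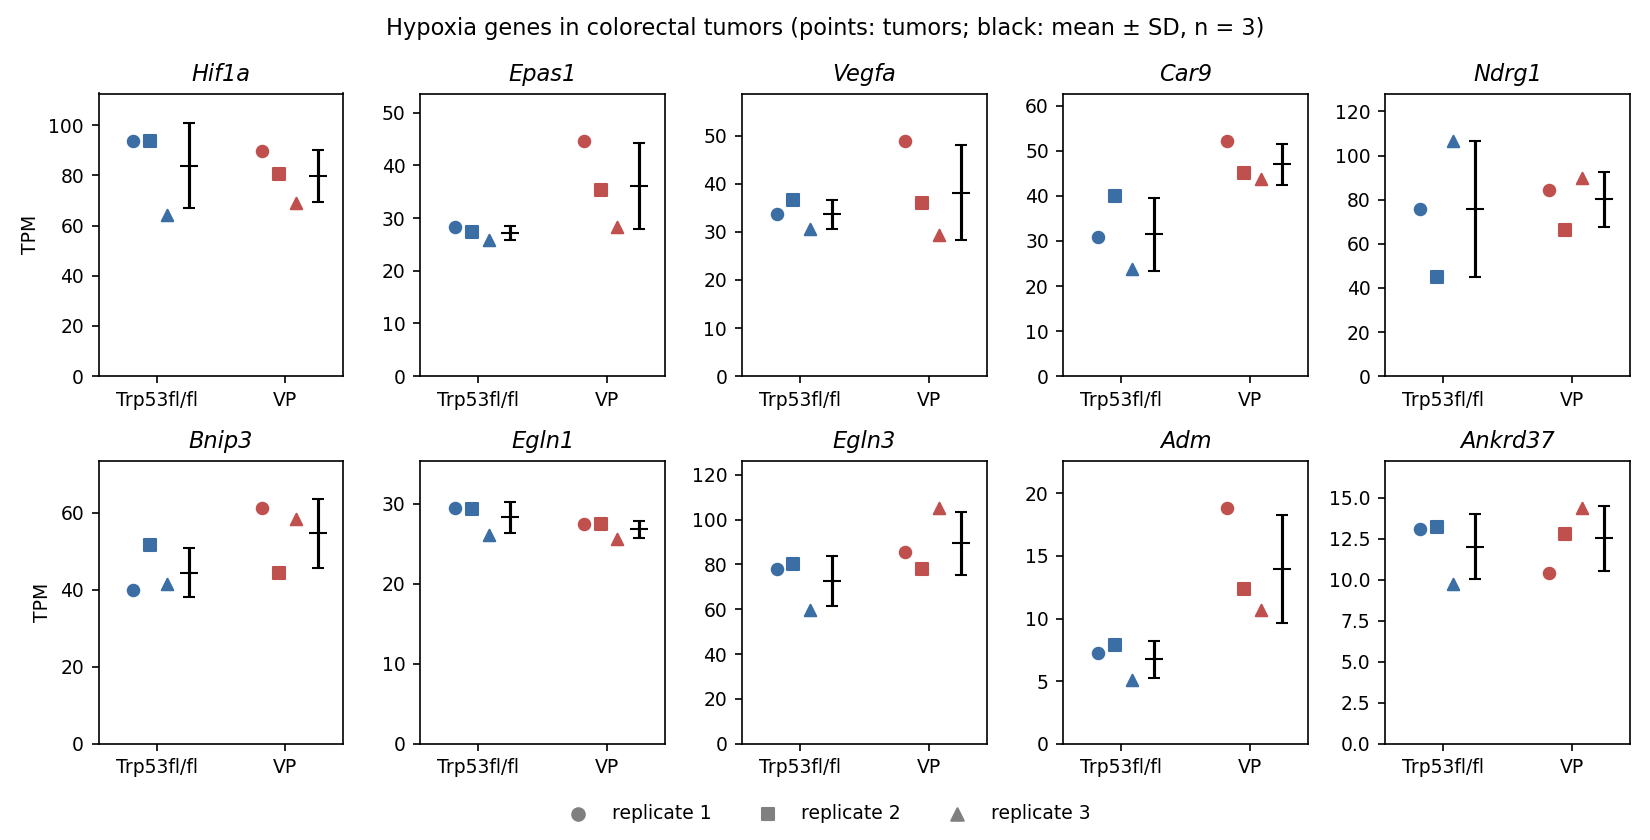
TPM of the 10 genes in each of the 6 tumors, with 1 panel per gene, points for single tumors and bars for the mean of 3 tumors of a genotype. Adm and Car9 are the genes whose VP points all lie above the Trp53fl/fl points, and Ndrg1 has the widest spread among Trp53fl/fl tumors.

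Of the alpha subunits, Hif1a (ENSMUSG00000021109, chromosome 12 from 73901375 to 73947530, GRCm38, by GENCODE M21, as for all members) encodes the one found in nearly all cells. It was at 93.48, 93.81 and 64.33 TPM in the Trp53fl/fl tumors against 89.64, 80.46 and 68.91 TPM in the VP tumors. The VP values lay within the range of the Trp53fl/fl values. The means were 83.9 ± 16.9 TPM and 79.7 ± 10.4 TPM (SD, n = 3 each), and the log2 fold change of -0.06 (SE 0.18, 95% interval -0.48 to 0.36, limma adjusted p = 0.902) leaves room for a difference in either direction.

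Epas1 (ENSMUSG00000024140, chromosome 17 from 86753700 to 86833410) encodes HIF2α, which is prominent in endothelium and, in intestinal epithelium, drives genes of iron uptake. It was at 28.38, 27.34 and 25.75 TPM in the Trp53fl/fl tumors, the tightest values of any member there, with a coefficient of variation of 4.88%. In the VP tumors it was at 44.70, 35.24 and 28.35 TPM. VP replicates 1 and 2 stood above all Trp53fl/fl tumors and VP replicate 3 was level with the highest of them. The log2 fold change was 0.38 (SE 0.17, 95% interval -0.03 to 0.78, limma adjusted p = 0.416), and without VP replicate 1 it was 0.21. Endothelial markers (12 of 12 expressed) summed to 211.6 to 269.3 TPM in Trp53fl/fl tumors and 256.9 to 292.5 TPM in VP tumors, and their part in the Epas1 values was not tested.

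The ratio of Epas1 to Hif1a within each tumor, on TPM, was 0.304, 0.291 and 0.400 in the Trp53fl/fl tumors and 0.499, 0.438 and 0.411 in the VP tumors. All VP ratios were higher than all Trp53fl/fl ratios, by a mean log2 difference of 0.45. Of 4 ratios compared, this one and 2 below reached the smallest p that 3 tumors against 3 allow in a two-sided exact permutation test, 0.1 (0.133 adjusted over the 4 ratios), so the design could not pass 0.05. Hif3a, a further alpha subunit with low expression, was at 1.32, 1.68 and 1.16 TPM against 6.62, 2.67 and 2.26 TPM (log2 fold change 0.92, limma adjusted p = 0.351, unadjusted 0.0277). As a share of the summed TPM of Hif1a, Epas1 and Hif3a, Epas1 made up 24.5 ± 3.24% (SD, n = 3) in the Trp53fl/fl tumors and 31.7%, 29.8% and 28.5% in the VP tumors, and Hif3a 1.24 ± 0.151% and 3.07 ± 1.4% (SD, n = 3 each).

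Of the prolyl hydroxylases, Egln1 (ENSMUSG00000031987, chromosome 8 from 124908587 to 124949324) encodes PHD2, the main oxygen sensor that sets HIF1α levels in most tissues. It was at 29.44, 29.36 and 26.06 TPM in the Trp53fl/fl tumors against 27.44, 27.41 and 25.57 TPM in the VP tumors. These values spanned less than those of any other member over the 6 tumors, and the genotypes overlapped. The log2 fold change was -0.07 (SE 0.11, 95% interval -0.33 to 0.18, limma adjusted p = 0.79).

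Egln3 (ENSMUSG00000035105, chromosome 12 from 54178981 to 54203860) encodes PHD3, a hydroxylase that is itself induced by HIF and so takes part in feedback. It was at 77.88, 80.26 and 59.65 TPM in the Trp53fl/fl tumors against 85.39, 77.83 and 105.15 TPM in the VP tumors. VP replicate 3 was the highest, and VP replicate 2 lay below 2 of the Trp53fl/fl tumors. The log2 fold change was 0.30 (SE 0.16, 95% interval -0.09 to 0.68, limma adjusted p = 0.482). It was 0.16 without Trp53fl/fl replicate 3, 0.18 without VP replicate 3 and 0.13 with epithelial centring.

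Egln3 was the more abundant of the pair in every tumor. The ratio of Egln3 to Egln1 was 2.65, 2.73 and 2.29 in the Trp53fl/fl tumors and 3.11, 2.84 and 4.11 in the VP tumors, without overlap (log2 difference 0.38, exact permutation p = 0.1, adjusted 0.133). Without VP replicate 3 the difference was 0.22. Egln2, which encodes PHD1, was at 59.0 ± 4.85 TPM and 62.2 ± 0.207 TPM (SD, n = 3 each). Of the summed TPM of the 3 hydroxylase genes, Egln1 made up 17.3%, 18.0% and 17.8% in the Trp53fl/fl tumors and 15.7%, 16.4% and 13.3% in the VP tumors, while Egln3 made up 45.2 ± 4.24% and 49.9 ± 4.13% (SD, n = 3 each).

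**Figure D2:**
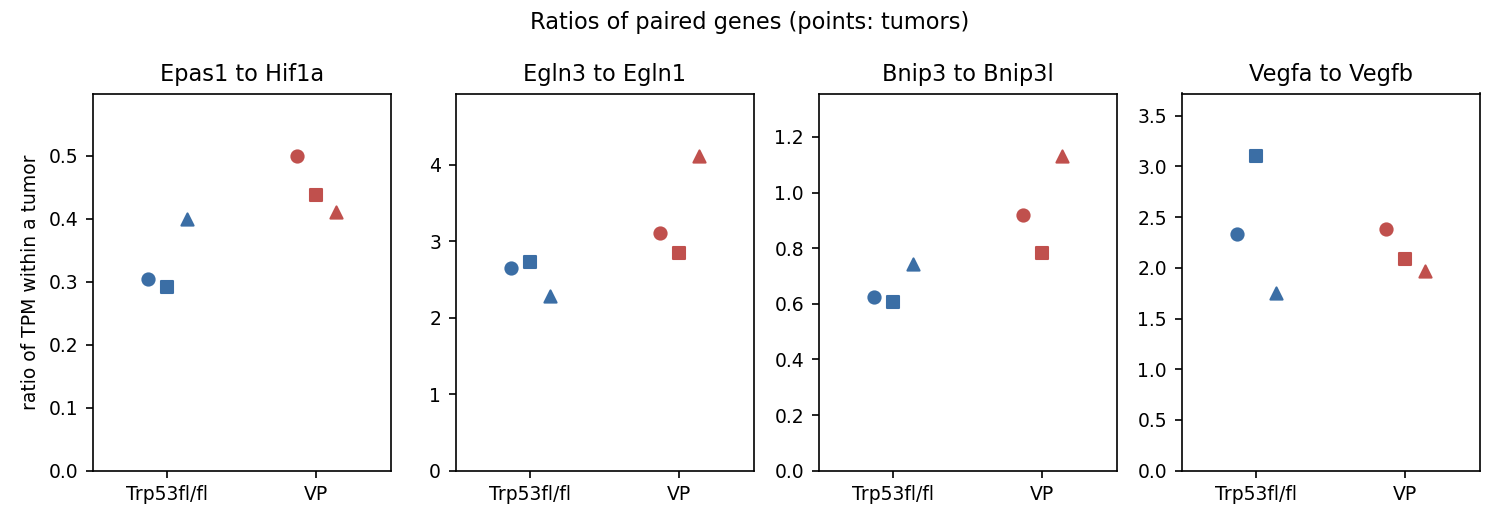
Ratios of TPM within each tumor for Epas1 to Hif1a, Egln3 to Egln1, Bnip3 to Bnip3l and Vegfa to Vegfb, with a point per tumor and genotypes side by side. The VP tumors lie above the Trp53fl/fl tumors for the first 3 ratios and overlap them for Vegfa to Vegfb.

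Of the secreted targets, Adm (ENSMUSG00000030790, chromosome 7 from 110627661 to 110629820) encodes adrenomedullin, a peptide that widens vessels and seals endothelium and epithelium. It was at 7.27, 7.90 and 5.06 TPM in the Trp53fl/fl tumors against 18.82, 12.37 and 10.70 TPM in the VP tumors. The lowest VP tumor was above the highest Trp53fl/fl tumor. The means were 6.74 ± 1.49 TPM and 14.0 ± 4.29 TPM (SD, n = 3 each), a ratio of 2.07 and the largest among the 10 genes. On the log2 scale the difference was 0.93 (SE 0.24, 95% interval 0.36 to 1.5, limma adjusted p = 0.278, unadjusted 0.00614). Over 15 alternative settings it ran from 0.71 to 1.09, with an unadjusted p of 0.00264 to 0.0206 and an adjusted p of 0.0622 to 0.609.

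Marker genes of neutrophils and red cells had higher summed levels in every VP tumor, as did the epithelial markers used for centring. Neutrophil markers summed to 1037, 659.1 and 843.1 TPM in the Trp53fl/fl tumors and to 2680, 2381 and 1577 TPM in the VP tumors. The log2 fold changes of all 14 were positive (13 after epithelial centring) with a median of 1.32. At an unadjusted p under 0.05, 10 were higher, as were 4.51% of all genes. Ngp, a granule protein, passed the adjusted threshold (log2 fold change 4.37, limma adjusted p = 0.00804). Erythroid markers summed to 164.5 to 483.9 TPM and 647.8 to 992.4 TPM, and 4 of 4 tested were higher at an unadjusted p under 0.05 (median 1.59). Hba-a2, an alpha globin gene, was listed at 0 in every tumor. The part of these cells in the Adm values was not tested. Centring each tumor on its epithelial markers moves the log2 fold change of every gene by the same amount, so it does not test that part. It left Adm at 0.76 on the log2 scale (limma adjusted p = 0.141).

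Vegfa (ENSMUSG00000023951, chromosome 17 from 46016993 to 46032369) encodes the vascular growth factor that is the best known HIF target. It was at 33.69, 36.62 and 30.51 TPM in the Trp53fl/fl tumors against 48.97, 36.03 and 29.45 TPM in the VP tumors. VP replicate 1 stood alone above the other tumors, and VP replicate 3 was the lowest of all 6. This gave a log2 fold change of 0.15 (SE 0.19, 95% interval -0.30 to 0.60, limma adjusted p = 0.753), and it was -0.04 without VP replicate 1. The ratio of Vegfa to Vegfb, a related ligand, was 2.33, 3.10 and 1.75 in the Trp53fl/fl tumors and 2.38, 2.09 and 1.97 in the VP tumors (log2 difference -0.12, exact permutation p = 0.8). Vegfa made up 58.3 ± 6.74% and 57.4 ± 5.5% (SD, n = 3 each) of the summed TPM of the VEGF ligands.

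Of 14 genes for other VEGF ligands, the related peptide Adm2, and receptors of VEGF and adrenomedullin, 13 were tested. None was higher or lower in limma, either adjusted or at an unadjusted p under 0.05, with 6 positive and 7 negative log2 fold changes. The most abundant was Ramp3, a subunit of the adrenomedullin receptor, at 49.39, 17.38 and 39.60 TPM in the Trp53fl/fl tumors and 41.95, 17.14 and 29.95 TPM in the VP tumors. Each genotype held 1 tumor well below its other tumors.

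Car9 (ENSMUSG00000028463, chromosome 4 from 43506966 to 43513729) encodes carbonic anhydrase IX, a membrane enzyme that converts carbon dioxide at the cell surface and is widely used as a hypoxia marker. It was at 30.82, 39.93 and 23.76 TPM in the Trp53fl/fl tumors against 52.28, 45.10 and 43.86 TPM in the VP tumors. All VP tumors were above all Trp53fl/fl tumors. The means were 31.5 ± 8.11 TPM and 47.1 ± 4.55 TPM (SD, n = 3 each), a ratio of 1.49. Between genotypes the log2 fold change was 0.59 (SE 0.19, 95% interval 0.14 to 1.04, limma adjusted p = 0.325, unadjusted 0.0171). Without VP replicate 1 its unadjusted p was 0.0573, and over the 15 alternatives its adjusted p ran from 0.0613 to 0.664.

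Centred on the epithelial markers, Car9 differed by 0.42 on the log2 scale (limma adjusted p = 0.197). An antisense gene, Gm12454, overlaps Car9 and reached at most 3.97 TPM, and whether reads were assigned by strand is not stated. Among carbonic anhydrases, Car9 made up 7.39%, 6.11% and 5.42% of the summed TPM in the Trp53fl/fl tumors and 10.1%, 10.1% and 11.9% in the VP tumors. The sum behind this share includes Car1, an enzyme of mature colonocytes, at 153.83, 283.58 and 121.70 TPM against 95.83, 95.93 and 80.66 TPM (log2 fold change -0.94, limma adjusted p = 0.317, unadjusted 0.0141). Car2, the most abundant, was at 198.9 ± 67.4 TPM and 201.8 ± 50.5 TPM (SD, n = 3 each). Of the 15 other carbonic anhydrase genes, 9 were tested, with 0 higher and 1 lower at an unadjusted p under 0.05 (4.51% and 8.0% of all genes).

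Ndrg1 (ENSMUSG00000005125, chromosome 15 from 66929318 to 66969640) encodes a stress protein linked to differentiation that both HIF and p53 are known to induce. It was at 75.81, 45.16 and 106.78 TPM in the Trp53fl/fl tumors against 84.58, 66.25 and 89.78 TPM in the VP tumors. The Trp53fl/fl tumors held both the lowest and the highest value, with a coefficient of variation of 40.6%. Its log2 fold change was 0.15 (SE 0.30, 95% interval -0.55 to 0.85, limma adjusted p = 0.845). The interval spans differences in either direction, and the value was -0.18 without Trp53fl/fl replicate 2 and 0.44 without Trp53fl/fl replicate 3.

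Among the other 3 genes of its family, Ndrg2 was at 51.10, 50.40 and 57.35 TPM in the Trp53fl/fl tumors and 70.45, 70.21 and 68.01 TPM in the VP tumors (log2 fold change 0.39, limma adjusted p = 0.278, unadjusted 0.00561). Its VP values were closely spaced and all above the Trp53fl/fl values, as in 6.03% of all genes. It was the 1 gene of these 3 with an unadjusted p under 0.05 in limma, where 4.51% of all genes were higher. Ndrg1 made up 43.4 ± 8.47% and 41.8 ± 3.62% (SD, n = 3 each) of the summed TPM of the family.

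Bnip3 (ENSMUSG00000078566, chromosome 7 from 138890836 to 138909519) encodes a mitochondrial protein that promotes mitophagy, the removal of mitochondria. It was at 40.06, 51.68 and 41.42 TPM in the Trp53fl/fl tumors against 61.22, 44.39 and 58.43 TPM in the VP tumors. VP replicates 1 and 3 were above all Trp53fl/fl tumors and VP replicate 2 was among them. On the log2 scale the difference was 0.29 (SE 0.16, 95% interval -0.09 to 0.67, limma adjusted p = 0.49). Its relative Bnip3l, also a mitophagy receptor and HIF target, was at 68.4 ± 15.2 TPM and 58.4 ± 7.58 TPM (SD, n = 3 each, log2 fold change -0.21, limma adjusted p = 0.63). The ratio of Bnip3 to Bnip3l was 0.623, 0.606 and 0.744 in the Trp53fl/fl tumors and 0.918, 0.784 and 1.13 in the VP tumors, without overlap (log2 difference 0.51, exact permutation p = 0.1, adjusted 0.133).

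Ankrd37 (ENSMUSG00000050914, chromosome 8 from 45996902 to 46005707) encodes an ankyrin repeat protein known as a HIF1 target. It was at 13.11, 13.20 and 9.72 TPM in the Trp53fl/fl tumors against 10.42, 12.78 and 14.36 TPM in the VP tumors. The genotypes overlapped, with the lowest value in a Trp53fl/fl tumor and the highest in a VP tumor. This gave a log2 fold change of 0.06 (SE 0.18, 95% interval -0.36 to 0.47, limma adjusted p = 0.907). Ufsp2, a protein-coding gene on the opposite strand that reached 48.48 TPM, overlaps it, so with strand not stated the Ankrd37 values may include reads of that gene.

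**Figure D3:**
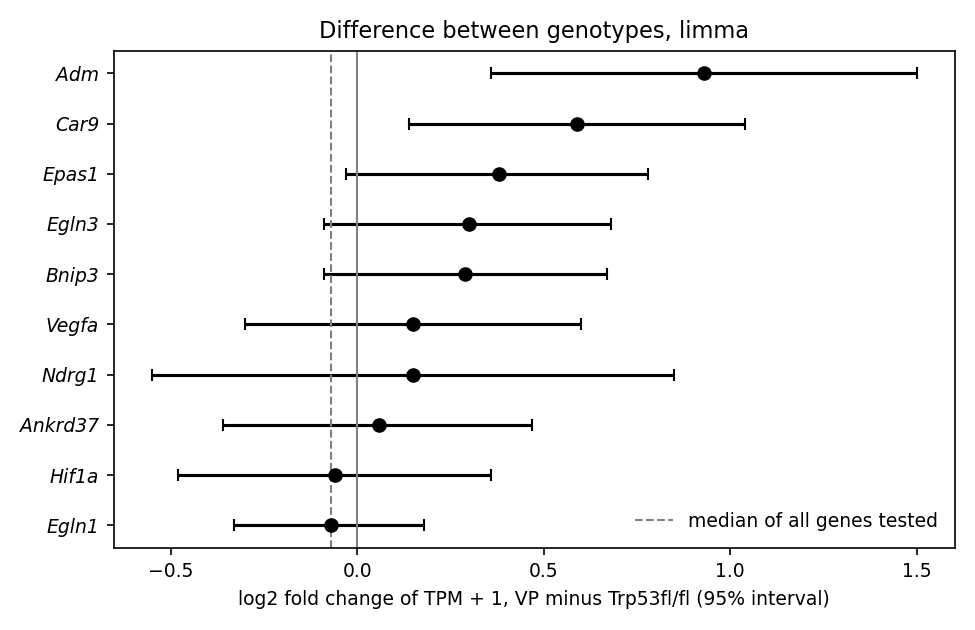
Log2 fold change (VP minus Trp53fl/fl, log2(TPM + 1) scale) of the 10 genes, with points for the limma estimate and bars for its 95% interval. The intervals of Adm (0.36 to 1.5) and Car9 (0.14 to 1.04) lie above 0 before adjustment, and the other 8 include 0.

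In Trp53fl/fl tumors Hif1a, Ndrg1 and Egln3 had the highest mean TPM (83.9, 75.9 and 72.6) and overlapped one another. Bnip3 followed at 44.4 TPM, without overlap with its neighbours in that order, Egln3 and Vegfa, although 1 Ndrg1 value lay within its range. Vegfa, Car9, Egln1 and Epas1 formed an overlapping group between 33.6 and 27.2 TPM, with Ankrd37 at 12 TPM and Adm at 6.74 TPM each apart from the next. In VP tumors Egln3 (89.5 TPM), Ndrg1 (80.2 TPM) and Hif1a (79.7 TPM) again overlapped at the top. Bnip3, Car9, Vegfa and Epas1 then formed an overlapping series from 54.7 to 36.1 TPM, Egln1 stood apart at 26.8 TPM, and Adm (14.0 TPM) overlapped Ankrd37 (12.5 TPM).

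By tumor, VP replicate 1 held the highest value of 5 members, Epas1, Vegfa, Car9, Bnip3 and Adm. VP replicate 3 held that of Egln3 and Ankrd37, and VP replicate 2 that of 0 members. Trp53fl/fl replicate 3 held the lowest value of 6 members, Hif1a, Epas1, Car9, Egln3, Adm and Ankrd37, and yet the highest of Ndrg1. The summed TPM of the 10 genes was 429.9, 425.3 and 393.0 in the Trp53fl/fl tumors and 523.5, 437.9 and 474.6 in the VP tumors. The neutrophil marker sum was 2680 TPM in VP replicate 1, 2381 TPM in VP replicate 2 and 1577 TPM in VP replicate 3. The part of neutrophils in the members' values was not tested.

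Of 15 further genes of the HIF machinery, all tested, 2 were higher and 2 lower at an unadjusted p under 0.05 (4.51% and 8.0% of all genes) and none passed the adjusted threshold (limma). Hif3a and Elob, the elongin B of the VHL complex (554.7 ± 70.5 TPM and 678.2 ± 19.5 TPM, SD, n = 3 each, log2 fold change 0.30, limma adjusted p = 0.391), were the higher ones. The lower ones were the coactivators Ep300, at 25.8 ± 2.57 TPM and 19.6 ± 1.89 TPM, and Crebbp, at 7.90 ± 0.477 TPM and 5.86 ± 0.594 TPM (SD, n = 3 each), both at -0.38 on the log2 scale (limma adjusted p = 0.34 and 0.358). Vhl was at 18.1 ± 0.997 TPM and 17.6 ± 3.10 TPM (SD, n = 3 each). The log2 fold changes of Arnt and of Hif1an, the asparagine hydroxylase FIH, were -0.15 and -0.20. In all, 3 of the 15 were positive, where 39.2% of all genes were, and the median was -0.15 against -0.07 over all genes. The list's median was -0.09 with median-of-ratios rescaling, -0.08 with quantile normalization and -0.32 with epithelial centring, where all genes had medians of -0.01, -0.02 and -0.24.

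Of 29 further HIF targets, 7 were higher and 1 lower at an unadjusted p under 0.05, and 0 passed adjustment in limma. Of all genes, 4.51% were higher and 8.0% lower at that p. The median log2 fold change was 0.16 with 19 positive, where all genes had -0.07 and 39.2% positive. After epithelial centring it was -0.01 with 14 positive, where all genes had -0.24. The higher ones with the smallest p were Pfkfb4, which raises glycolytic flux (0.39, limma adjusted p = 0.331), Lox, which crosslinks collagen (0.55, adjusted p = 0.341), and P4ha2, a collagen prolyl hydroxylase (0.44, adjusted p = 0.381). Mxi1, which antagonizes MYC, was at 43.62, 44.56 and 43.84 TPM in the Trp53fl/fl tumors and 31.53, 34.57 and 34.24 TPM in the VP tumors (log2 fold change -0.39, limma adjusted p = 0.278, unadjusted 0.00527). Ddit4, an inhibitor of mTORC1 and the most abundant, was at 258.4 ± 20.6 TPM and 234.7 ± 25.5 TPM (SD, n = 3 each).

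All 15 HIF targets of glycolysis had a positive log2 fold change (11 of 15 after epithelial centring), with a median of 0.28, where 39.2% of all genes were positive. At an unadjusted p under 0.05, 7 were higher, as were 4.51% of all genes, with 0 passing adjustment in limma. Ldha, lactate dehydrogenase A, was at 913.61, 822.19 and 928.99 TPM in the Trp53fl/fl tumors and 1166.77, 1192.77 and 1196.74 TPM in the VP tumors (log2 fold change 0.42, limma adjusted p = 0.276, unadjusted 0.00519). Pgk1, phosphoglycerate kinase, and Slc2a1, the glucose transporter GLUT1, differed by 0.38 and 0.39 on that scale (limma adjusted p = 0.279 and 0.331). Gapdh, the most abundant, had 0.25 (limma adjusted p = 0.521). Centred on the epithelial markers, 0 of the 15 had an unadjusted p under 0.05 in limma. Of all 15117 genes tested 3571 did, and of the 10 members Adm and Car9 did. The median of the 15 was then 0.11 and that of all genes -0.24, against 0.28 and -0.07 without centring. Of the 4 HIF2 targets of intestinal iron uptake, only the iron importer Slc11a2 was higher at an unadjusted p under 0.05 (33.7 ± 2.73 TPM and 42.8 ± 4.23 TPM, SD, n = 3 each, log2 fold change 0.34, limma adjusted p = 0.345). The list had 2 positive and 2 negative log2 fold changes, with a median of 0.12.

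**Figure D4:**
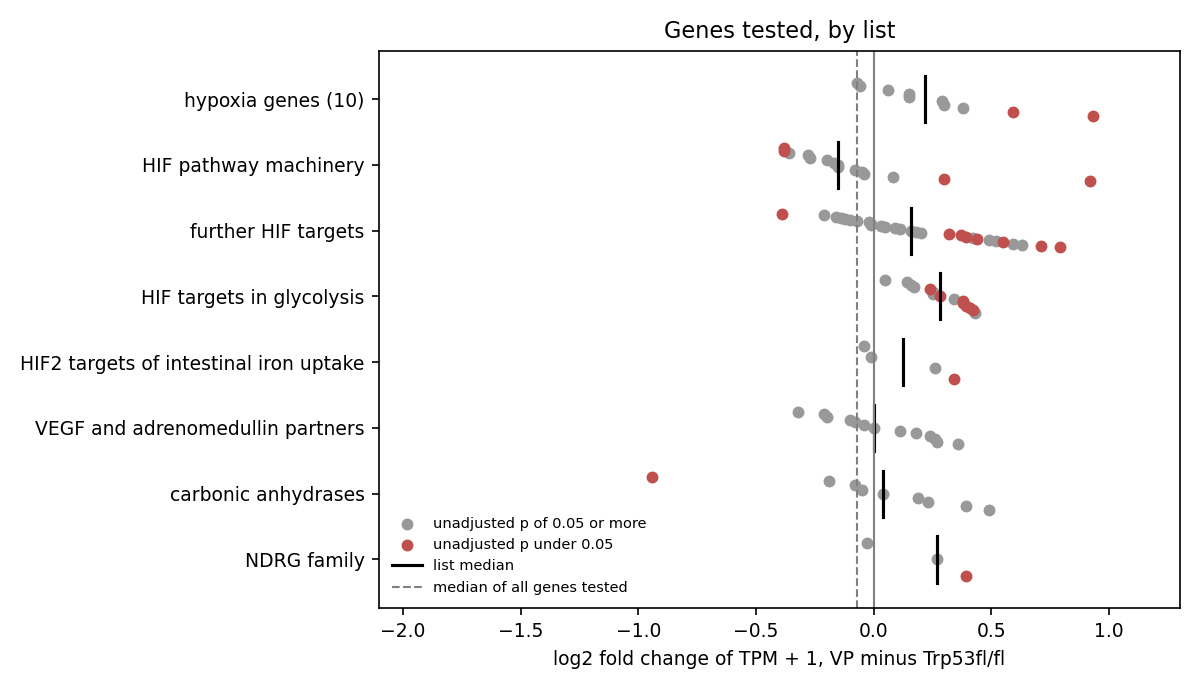
Log2 fold change (VP minus Trp53fl/fl) of every tested gene in each gene list other than the cell markers, with a point per gene and a line for the list's median. All 15 glycolysis genes lie above 0, and the median of the hypoxia genes is 0.22 against -0.07 over all genes tested, drawn as a dashed line.

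For the remaining cell types, epithelial markers had 3 of 12 higher at an unadjusted p under 0.05 and endothelial markers 1 of 12 (Vwf), with median log2 fold changes of 0.13 and 0.14. Over all genes 4.51% were higher and 8.0% lower at that p. Macrophage markers had 1 of 9 tested higher and summed to 493.7 to 513.2 TPM and 502.8 to 606.5 TPM. Fibroblast markers had 2 of 9 tested lower and summed to 917.3 to 1012 TPM and 792.3 to 1126 TPM. Smooth muscle markers had 0 of 8 at an unadjusted p under 0.05 or adjusted in limma, and they summed to 496.1 to 821.9 TPM and 420.8 to 1363 TPM. The part of these cells in the members' values was not tested.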

How the data were processed

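RNA-seq of 6 AOM/DSS colorectal tumors was analysed. The libraries were made by standard Illumina protocols from TRIzol-extracted RNA. The authors deposited TPM per gene with 2 decimals, and the submitters' processing notes name HISAT2, StringTie and mm9 without versions. The deposited table holds no coordinates, so gene positions were taken from GENCODE M21 (GRCm38), in which 52093 of 54167 gene IDs (96.17%) have an entry. Columns were assigned to tumors through the codes in the sample labels, 0 columns were left unassigned and 0 pairs held identical values.

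From the deposited TPM, log2(TPM + 1) of genes reaching 1 TPM in 3 or more tumors entered a linear model in limma 3.58.1 (R 4.3.3), with its trended empirical Bayes step and p-values adjusted by Benjamini-Hochberg. The script was tested on simulated data. Ratios of TPM were compared by two-sided exact permutation in Python (scipy 1.17.1, numpy 2.4.6). Promoter sequences were those of RefSeq for GRCm38.p6. The 10 members, the gene lists and the marker lists were chosen with earlier results of these data known. All 10 members are named. The other names were drawn from Trp53, Cdkn1a, the HIF machinery, the genes of the ratios and, in each other list, the genes past the adjusted threshold, up to 3 in each direction with the smallest unadjusted p under 0.05 and the most abundant. Not every gene that this rule covers is named, least of all among the machinery and the markers, whose lists are given mainly by counts and sums. Hba-a2, Adm2 and the genes that overlap members were named outside the rule, after their values were seen, and the epithelial markers only as members of their list. Some marker genes are not reported here singly. Where a symbol had several entries, that of the highest mean TPM was used. The lists covered HIF machinery, further HIF targets, glycolysis, iron uptake, VEGF and adrenomedullin partners, carbonic anhydrases, the NDRG family, and markers of epithelial, endothelial, neutrophil, macrophage, fibroblast, smooth muscle and erythroid cells. Alternatives were centring on epithelial markers, quantile normalization, a pseudocount of 0.1, median-of-ratios rescaling, no filter, a filter on the mean (5 TPM or more), the replicate number as a block, no trend, array quality weights, and each tumor left out in turn.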

Additional observations from a re-analysis of the deposited data

How the results depend on the processing

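Under every alternative 0 of the 10 members passed the adjusted threshold in limma, and 1 to 4 had an unadjusted p under 0.05 against 2 as reported. Of all 15117 genes, 1892 were under 0.05 as reported, 3571 with epithelial centring and 4213 with array quality weights. With the replicate block 1648 were, and with 1 tumor left out 1130 to 2433. Over all genes tested, 25 calls became 7 with no filter, 323 with array quality weights (which gave Trp53fl/fl replicate 1 a weight of 7.29 and the others 0.444 to 1.04) and 6 to 28 with 1 tumor left out, fewest without VP replicate 2. The share of higher calls was 48.0% as reported, 59.1% with median-of-ratios rescaling, 37.5% with epithelial centring and 58.8% to 75.0% with 1 tumor left out. The adjusted p of Trp53 ran from 0.00183 to 0.104, with log2 fold changes of -2.04 to -1.74. It was 0.104 with no filter, 0.0883 with the replicate block, and 0.0986, 0.0553, 0.0583 and 0.0938 without Trp53fl/fl replicate 1, Trp53fl/fl replicate 3, VP replicate 1 and VP replicate 2.

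The deviations of tumors with the same replicate number correlated at 0.019, -0.052 and 0.018, and those of other combinations at -0.108 to 0.095. No shared deviation was seen, which does not settle whether same-numbered tumors were handled together. With the replicate block the calls over all genes were 10, of which 70.0% were higher, and the counts at an unadjusted p under 0.05 were 2 for the machinery (4 as reported) and 2 for carbonic anhydrases (1 as reported), while 3 members were under 0.05.

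Counts at an unadjusted p under 0.05 with epithelial centring were 8 for the machinery, 2 for further targets (8 as reported), 0 for glycolysis (7 as reported), 0 for iron uptake and 0 for the NDRG family (1 as reported for each). That centring moved genes in general, with 3571 of 15117 genes under 0.05 (1892 as reported) and a median of -0.24 over all genes (-0.07 as reported). With array quality weights, where 4213 of all genes were under 0.05, the counts were 4 for the members, 7 for the machinery, 13 for further targets, 1 for VEGF and adrenomedullin partners (0 as reported) and 2 for carbonic anhydrases. With 1 tumor left out these counts ran from 1 to 3 for the members, 1 to 4 for the machinery, 3 to 7 for further targets, 3 to 8 for glycolysis, 0 to 1 for iron uptake, 0 to 1 for the partners and 1 to 2 for carbonic anhydrases.

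Log2 fold changes that changed sign belonged to members near 0. Hif1a was 0.01 with median-of-ratios rescaling and -0.24 to 0.04 with 1 tumor left out. Vegfa was -0.02 with epithelial centring and -0.04 to 0.32 with 1 tumor left out. Ndrg1 was -0.02 with epithelial centring and -0.18 to 0.44 with 1 tumor left out. Ankrd37 was -0.11 with epithelial centring, -0.04 with array quality weights and -0.08 to 0.17 with 1 tumor left out. Members that kept their sign but moved by over 1.5 times with epithelial centring were Epas1 (0.20), Bnip3 (0.12), Egln3 (0.13) and Egln1 (-0.24), and with 1 tumor left out they ran from 0.21 to 0.53, 0.20 to 0.43, 0.16 to 0.39 and -0.13 to -0.04. The difference in the log2 ratio of Vegfa to Vegfb ran from -0.33 to 0.08 with 1 tumor left out, and the ratios of Epas1 to Hif1a, Egln3 to Egln1 and Bnip3 to Bnip3l kept their direction there (0.36 to 0.59, 0.22 to 0.49 and 0.37 to 0.64). The causes were not tested. TPM keep no depth, so counting error is unknown, and 3 tumors a genotype limit the precision.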
